A study of Mus musculus with 12 samples.

Results

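Wnt ligands are described here in epithelial cells of the mouse submandibular salivary gland at embryonic day 15. The 10 genes were taken by name: Wnt2, Wnt4, Wnt5a, Wnt5b, Wnt6, Wnt7b, Wnt9a, Wnt10a, Wnt10b and Wnt11. All 10 were among the 43280 gene symbols of the count table, which also held 9 other Wnt genes. Of the 10, 8 passed the filter on low counts and were tested among 17030 genes, and Wnt7b and Wnt10a did not pass it. The embryos carried the transgene Tg(KRT5-Venus)1Sgkd, in which the fluorescent protein Venus reports activity of the keratin 5 promoter, so every population came from transgenic glands and Venus signal stands for the transgene rather than for endogenous keratin 5. E-cadherin-positive cells were divided by flow cytometry, by Venus and by Kit, a receptor tyrosine kinase, into 4 populations: double positive (Kit+ K5+), Kit+ K5-, Kit- K5+ and double negative (Kit- K5-). Each population had 3 RNA-seq libraries, and no treatment separates them. The sources used here do not state how many embryos or litters a library holds, so p-values measure the spread between these libraries, which may be technical.

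Wnt proteins are secreted, lipid-modified ligands that act over short distances. A Wnt is acylated by Porcupine, carried to the cell surface by Wntless (Wls), and binds a Frizzled receptor together with Lrp5 or Lrp6, which stabilizes beta-catenin and turns on target genes through Tcf and Lef factors. Other Wnts, with Wnt5a as the standard example, act mainly without beta-catenin, through Ror receptors and the planar polarity pathway. In the developing salivary gland, Wnt signals pass between the epithelium and the surrounding mesenchyme, and beta-catenin signalling in the epithelium is known for its part in the choice between duct and end bud.

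The bases upstream of the start are shown for the ligands that passed at least 1 comparison of populations given below, Wnt4, Wnt5b and Wnt11. Wnt11 passed only that of Kit+ K5+ against Kit- K5- cells. The sequences are RefSeq promoter windows on GRCm38.p6, printed 5′ to 3′ on the strand of the gene and ended before the annotated transcript. Capitals mark matches on either strand to 5 short motifs that were searched: CTTTGA and CTTTGT (the core of Tcf and Lef sites), TGANTCA (AP-1), CANNTG (the E-box) and TATAAA (the TATA box). For Wnt4 the window is chr4:137277385-137277488 on the plus strand, for Wnt5b chr6:119544348-119544597 on the minus strand, and for Wnt11 chr7:98834862-98835111 on the plus strand.
Wnt4: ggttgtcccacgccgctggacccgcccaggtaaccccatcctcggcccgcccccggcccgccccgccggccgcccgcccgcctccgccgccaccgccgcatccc
Wnt5b: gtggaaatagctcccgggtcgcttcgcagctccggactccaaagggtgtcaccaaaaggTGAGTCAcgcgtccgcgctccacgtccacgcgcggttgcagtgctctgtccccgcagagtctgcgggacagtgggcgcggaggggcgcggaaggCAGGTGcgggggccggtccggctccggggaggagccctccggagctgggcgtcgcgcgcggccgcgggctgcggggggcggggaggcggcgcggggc
Wnt11: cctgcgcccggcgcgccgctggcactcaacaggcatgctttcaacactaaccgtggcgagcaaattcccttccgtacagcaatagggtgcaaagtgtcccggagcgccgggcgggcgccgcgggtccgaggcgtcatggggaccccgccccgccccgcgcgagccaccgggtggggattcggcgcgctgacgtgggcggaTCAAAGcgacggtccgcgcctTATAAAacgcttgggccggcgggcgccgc

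The Wnt11 bases held the Tcf and Lef core, as its reverse complement, and a TATA box, and the Wnt5b bases held an AP-1 match and an E-box. None of the motifs was in the 104 Wnt4 bases printed, which are fewer than the 250 of Wnt5b and of Wnt11. The whole Wnt4 window of 300 bases held an E-box. These matches are common: of 32851 RefSeq windows of 300 bases, 16% held CTTTGA, 13.6% TATAAA, 7.81% TGANTCA and 72.3% CANNTG. The whole windows of Wnt4, Wnt5b and Wnt11 that hold these bases were GC-rich, at 84.3%, 78% and 71.3% against a median of 52.7% over all windows. RefSeq also gave windows at 53% and 55% for Wnt5b and at 59.3% for Wnt11, which are not printed. The Wnt5b window at 55% held CTTTGA and an E-box, and the Wnt11 window at 59.3% held an E-box. RefSeq gave windows for 7 of the 10 ligands and none for Wnt5a, Wnt7b and Wnt10a.

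Depth ran from 5589037 to 13724364 counts per library, and 3 counts corresponded to 0.197 to 0.574 CPM, the counts scaled to a common library size, and several ligands lay near that limit. Values below are CPM on libraries scaled by TMM (trimmed mean of M values), given as mean ± SD with n = 3. The sort was visible in the transcripts of Kit, at 283 to 445 CPM in the 6 Kit+ libraries and at most 26.4 CPM in the 6 Kit- libraries. Krt5 itself ranged from 13.5 to 22.9 CPM in Kit- K5+ cells and from 0.317 to 9.93 CPM in the other 9 libraries, with overlap between Kit+ K5+ and Kit+ K5- cells. The Kit- K5- libraries departed from an epithelial label: Cdh1, which encodes the sorted E-cadherin, had 173 CPM there against 587 to 799.9 CPM on average elsewhere. In the same libraries 16 of 16 mesenchyme genes were detected with a summed level of 13080 to 20950 CPM, against 583 to 1311 CPM in the 9 other libraries, where all 16 were also detected. Their leukocyte, endothelial, red cell and neuron lists were likewise higher on average than in any other population, at 473, 53.8, 325 and 124 CPM. Mast cell transcripts summed to 128 to 4959 CPM in Kit+ K5- cells and to 2.75 to 46.9 CPM elsewhere.

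Scaled to all counts of a library, transcripts of the 10 ligands were most abundant in Kit- K5+ cells. Per kilobase of exon, which allows levels of different genes to be compared, the 10 ligands together reached 3.86 ± 1.41 CPM for Kit+ K5+, 3.94 ± 0.468 for Kit+ K5-, 19.2 ± 6.14 for Kit- K5+ and 7.89 ± 2.82 for Kit- K5- cells. The 3 Kit- K5+ libraries, at 15.2 to 26.3 CPM per kilobase, lay above all 9 others, and the highest of those had 10.8. This order depended on what the counts were measured against. Per 1000 CPM of 20 genes of epithelial cells in general, the ligand sum was 10.3 ± 3.93 for Kit- K5+ and 13.5 ± 3.63 for Kit- K5- cells, with overlap, but higher in Kit- K5- cells in each of the 3 runs of library numbers, and at most 2.30 in the Kit+ libraries. These are bulk samples, so fewer cells making a transcript and less of it per cell cannot be told apart. Wnt4 made up 46.2% ± 12.2, 43.7% ± 15.3, 56.8% ± 11.7 and 30.7% ± 3.91 of the sum in the same order of populations.

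**Figure D1:**
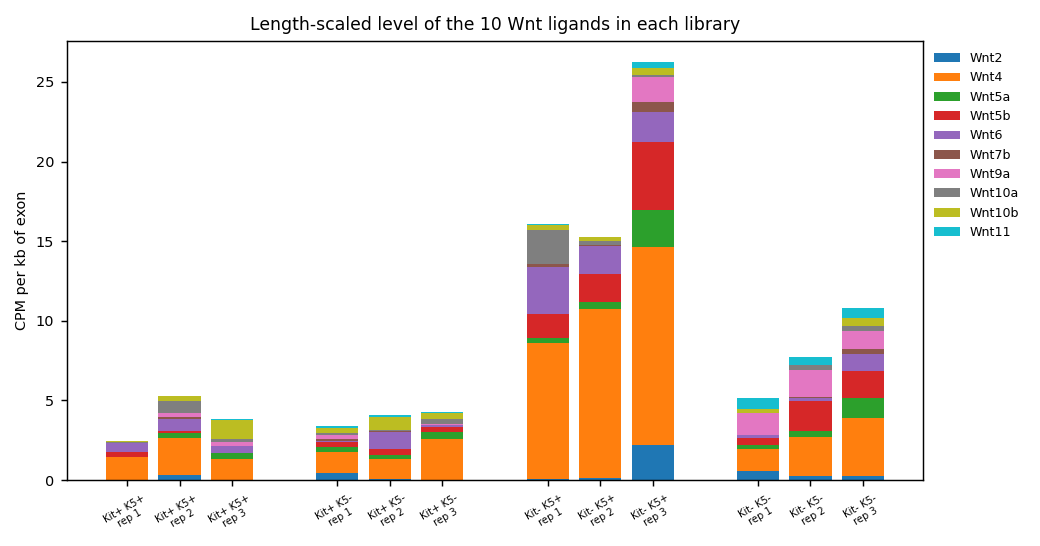
Length-scaled level of the 10 Wnt ligands in each of the 12 libraries, in CPM per kilobase of exon, stacked by gene on a linear axis from 0. The 3 Kit- K5+ libraries reach 15.2 to 26.3 and Wnt4 is the largest segment in each of them.

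The order of the 10 ligands differed between populations, on the same scale per kilobase. In Kit- K5+ cells Wnt4 stood first at 10.5 ± 1.91 CPM per kilobase, followed by Wnt5b (2.49 ± 1.53), Wnt6 (2.23 ± 0.636), Wnt5a (1.01 ± 1.16), Wnt10a (0.871 ± 1.13), Wnt2 (0.794 ± 1.22), Wnt9a (0.517 ± 0.896), Wnt10b (0.297 ± 0.0959), Wnt7b (0.277 ± 0.310) and Wnt11 (0.159 ± 0.225). The step from Wnt4 to Wnt5b exceeded the sum of their SDs, and each later step did not. In Kit- K5- cells the leading ones of the 10 were Wnt4 (2.49 ± 1.15), Wnt9a (1.41 ± 0.324), Wnt5b (1.36 ± 0.798), Wnt5a (0.607 ± 0.525) and Wnt11 (0.595 ± 0.133), and no neighbours in this order were further apart than the sum of their SDs. Both Kit+ populations had Wnt4 first, at 1.71 ± 0.532 and 1.74 ± 0.750, and no other of the 10 above 0.569 CPM per kilobase on average. Wnt2b, which is not among the 10, had 0.889 ± 0.942, 1.37 ± 0.0752, 0.899 ± 0.503 and 3.67 ± 0.842 CPM per kilobase in the order of populations used for the sum. In each of the 3 Kit- K5- libraries it exceeded Wnt4.

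Over the 4 populations, 2 of the 8 tested ligands differed, Wnt4 and Wnt5b, in edgeR's quasi-likelihood test with Benjamini-Hochberg adjustment, beside 25.7% of all genes tested. All adjusted p-values for genes below come from this test. Wnt11 had an adjusted p of 0.0679 (0.0279 with each run of library numbers as a block, and 0.0157 with DESeq2), Wnt6 of 0.141, Wnt9a of 0.179, Wnt5a of 0.229, Wnt2 of 0.477 and Wnt10b of 0.807. With any 1 library left out, Wnt4 and Wnt5b stayed called, with adjusted p-values of at most 0.00254 and 0.0224. The number called ran from 2 to 4, since leaving out some libraries let other ligands pass. Without Kit- K5+ replicate 3, the shallowest of the 12, Wnt9a (adjusted p = 0.0124) and Wnt11 (adjusted p = 0.0272) passed as well, which made 4. Wnt11 also passed without Kit- K5+ replicate 2 (adjusted p = 0.0459) or Kit+ K5+ replicate 3 (adjusted p = 0.0487), and Wnt6 without Kit+ K5- replicate 2 (adjusted p = 0.0310). Kit- K5+ replicate 3 had the highest level of the 12 for Wnt2, Wnt4, Wnt5a, Wnt5b and Wnt7b and the second highest for Wnt6 and Wnt9a. Its summed mesenchyme, leukocyte and glia levels of 903, 49.5 and 235 CPM were the lowest of its population. Its endothelial, neuron, skeletal muscle and melanocyte sums of 25.4, 17.6, 72.7 and 13.6 CPM were the highest of it, and mast cell and red cell sums lay between. Their part was not tested.

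**Figure D2:**
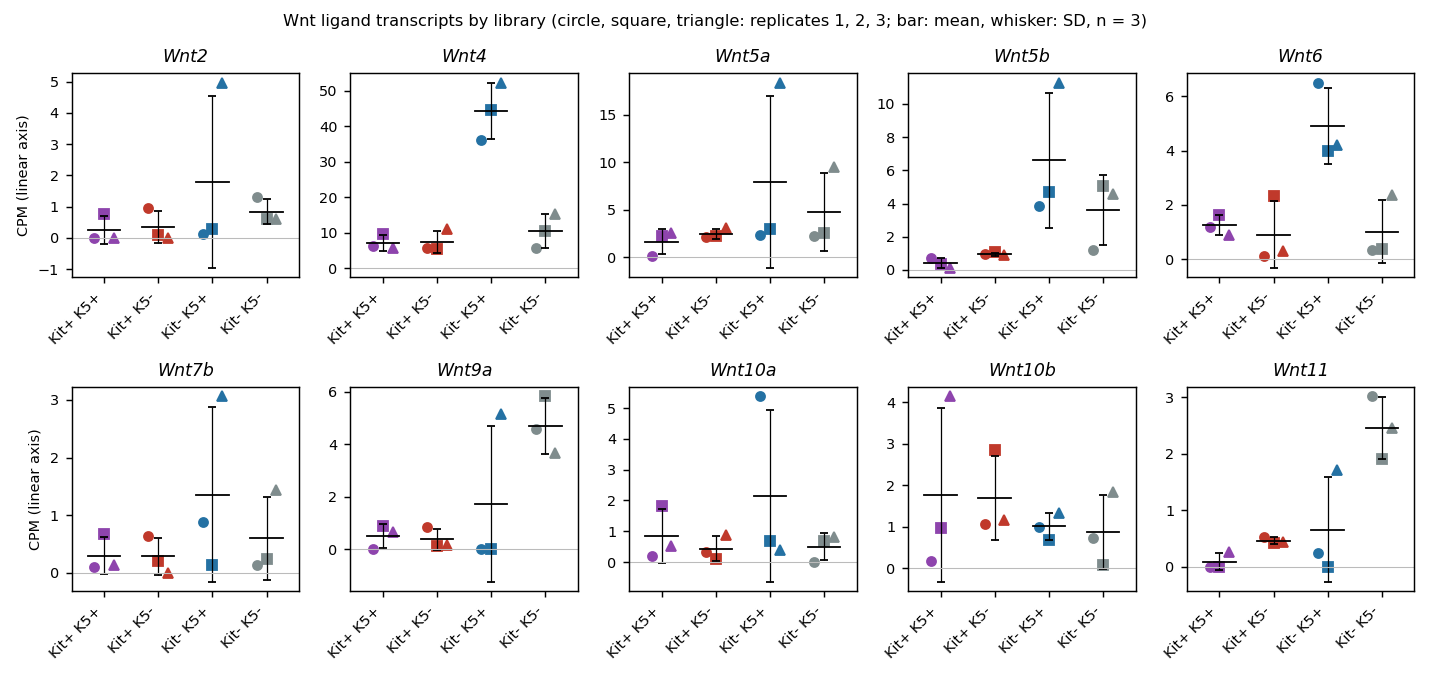
Level of each Wnt ligand in the 12 libraries, in CPM on a linear axis that differs between panels, with a bar at the mean and a whisker of 1 SD (n = 3). The triangle of Kit- K5+ cells, replicate 3, is the highest point for Wnt2, Wnt4, Wnt5a, Wnt5b and Wnt7b, and the 3 Kit- K5+ points of Wnt4 lie between 36.0 and 52.0 CPM, above all others.

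Wnt4 is a ligand best known for its need in kidney tubules and in the female reproductive tract. The gene lies on chromosome 4 at 137277489 to 137299726 (GENCODE M21 on GRCm38). Replicates 1, 2 and 3 had 6.09, 9.74 and 5.68 CPM for Kit+ K5+, 5.71, 5.27 and 10.9 for Kit+ K5-, 36.0, 44.6 and 52.0 for Kit- K5+ and 5.71, 10.3 and 15.3 for Kit- K5- cells. All 3 Kit- K5+ libraries were above all 9 others, and those 9 overlapped. The summed level of 15 basal duct genes was likewise highest there, at 1896 to 3675 CPM against 334 to 1604 CPM in the 9 others. Myoepithelial genes summed to 96.4 to 1343 CPM in Kit- K5+ cells and 34.5 to 131 CPM elsewhere, with the lowest value of the population in replicate 3, where Wnt4 was highest. Mitochondrial transcripts took 24.2% to 30.6% of counts in Kit- K5+ cells, 5.59% to 12.2% in Kit- K5- cells and up to 30.9% in the Kit+ libraries. The part of these in the Wnt4 difference was not tested.

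Among Kit- cells, Wnt4 was higher with K5 by 2.08 ± 0.41 on the log2 scale (SE, 4.24-fold, adjusted p = 0.00368). Kit+ cells had 6.14-fold less of it among K5+ cells (log2 -2.62 ± 0.42, adjusted p = 0.0223), and Kit+ K5- cells had 6.08-fold less than Kit- K5+ cells (log2 -2.60 ± 0.42, adjusted p = 0.0152). Within the 3 runs of library numbers, each holding every population, the log2 differences at a pseudocount of 0.5 CPM were 2.56, 2.06 and 1.73 for K5 among Kit- cells and -2.47, -2.14 and -3.09 for Kit among K5+ cells. No difference passed between K5+ and K5- among Kit+ cells (log2 -0.01 ± 0.41, adjusted p = 0.998) or between Kit+ and Kit- among K5- cells (log2 -0.52 ± 0.40, adjusted p = 0.398). On the log2 scale the K5 difference in Kit+ cells less that in Kit- cells was -2.10 ± 0.57, which missed the threshold (adjusted p = 0.0565) and passed with the block on the runs (0.0162), without Kit+ K5- replicate 1 (0.0495) or without Kit- K5- replicate 3 (0.0373). The call among Kit- cells was kept without any 1 library. That for Kit among K5+ cells was lost, with an adjusted p of up to 0.0969, without any 1 of the compared libraries except Kit- K5+ replicate 3, and that for Kit+ K5- against Kit- K5+ without Kit+ K5- replicate 2 (adjusted p = 0.0575).

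The comparison of Wnt4 with Kit- K5- cells depended on what the counts were measured against. Per 1000 counts of 20 genes of epithelial cells in general, Wnt4 had 1.73, 4.22 and 2.99 for Kit+ K5+, 1.92, 2.22 and 5.83 for Kit+ K5-, 18.7, 22.8 and 29.4 for Kit- K5+ and 10.3, 20.3 and 22.8 for Kit- K5- cells. On that basis the 6 Kit- libraries lay above the 6 Kit+ libraries, and the Kit- K5+ and Kit- K5- libraries overlapped. With libraries scaled to those genes, the K5 difference among Kit- cells was no longer called (log2 0.41, adjusted p = 0.455), while the median of all genes moved from 0.04 to -1.68. The Kit difference among K5- cells was then called (log2 -2.44, adjusted p = 4.32e-04, with a median of all genes of -1.98), and that among K5+ cells stayed called (log2 -2.99, adjusted p = 0.0120, with a median of -0.41). Summed levels of the epithelial genes were 510 to 673 CPM in Kit- K5- libraries and 1770 to 3519 CPM in the others, and whether Kit- K5- cells hold fewer epithelial cells was not tested.

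Wnt5b, the close relative of Wnt5a, lies on chromosome 6 at 119432531 to 119544347 on the minus strand. Its levels were 0.738, 0.386 and 0.129 CPM for Kit+ K5+, 0.951, 1.05 and 0.874 for Kit+ K5-, 3.88, 4.67 and 11.3 for Kit- K5+ and 1.18, 5.06 and 4.59 for Kit- K5- cells. All 6 Kit- libraries lay above all 6 Kit+ libraries, and the 2 Kit- populations overlapped. Kit+ K5+ cells had less Wnt5b than Kit- K5+ cells (log2 -3.89 ± 0.80, 14.9-fold, adjusted p = 0.0458) and less than Kit- K5- cells (log2 -3.03 ± 0.78, 8.15-fold, adjusted p = 0.0113). The first of these calls was lost with limma-voom (adjusted p = 0.108), with only the 2 populations fitted (adjusted p = 0.0627) and, with an adjusted p of up to 0.145, without any 1 of the 12 libraries except Kit+ K5- replicate 1 and Kit- K5- replicate 1. The second was kept without any 1 library and lost with limma-voom (adjusted p = 0.0565). Wnt5b needed Kit- libraries to pass the filter on low counts, which favours values below 0.

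Between Kit+ K5- and Kit- K5+ cells, Wnt5b differed by -2.76 ± 0.75 (adjusted p = 0.0692), and between Kit+ K5- and Kit- K5- cells by -1.89 ± 0.73 (adjusted p = 0.0816), both on the log2 scale and both short of the threshold. Per 1000 general epithelial counts it had 0.0679 to 0.466 in the Kit+ libraries and 2.01 to 9.91 in the Kit- libraries. With libraries scaled to those genes the Kit difference among K5- cells was called (log2 -3.93, adjusted p = 2.75e-04).

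Wnt5a, the standard ligand of the route without beta-catenin, had 0.184, 2.22 and 2.58 CPM for Kit+ K5+, 2.11, 2.21 and 3.06 for Kit+ K5-, 2.38, 3.02 and 18.4 for Kit- K5+ and 2.23, 2.53 and 9.49 for Kit- K5- cells. All 4 populations overlapped. The mean of 7.92 ± 9.05 CPM in Kit- K5+ cells came from replicate 3, and the other 2 libraries averaged 2.70 CPM. Its smallest adjusted p in a pairwise comparison was that of Kit among K5+ cells (log2 -2.25 ± 0.95, adjusted p = 0.228). Part of its exons, 4.58%, overlap the antisense gene Gm2670, and no source used here states the strand setting of the counting.

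Wnt11, which acts mainly without beta-catenin in cell movements of the embryo, had its highest levels in Kit- K5- cells. The libraries had 0, 0 and 0.258 CPM for Kit+ K5+, 0.528, 0.421 and 0.437 for Kit+ K5-, 0.250, 0 and 1.72 for Kit- K5+ and 3.02, 1.92 and 2.45 for Kit- K5- cells. The 3 Kit- K5- libraries were above all 9 others. A count of 0 allowed up to 0.277 and 0.289 CPM in the first 2 Kit+ K5+ libraries and 0.412 CPM in Kit- K5+ replicate 2, by counting error only.

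Summed over its 3 libraries, Kit- K5- had 95 counts of Wnt11 and Kit+ K5+ had 2, a ratio of 36.1 with a 95% counting interval of 9.72 to 302. This difference passed (log2 -4.81 ± 1.43 for Kit+ K5+ against Kit- K5-, adjusted p = 0.0233), with a fitted size that depends on the prior count. Wnt11 passed the filter on low counts only through Kit- libraries, which favours values below 0, so this call is a description. With 1 library left out, the log2 value ran from -7.57 to -4.21. The call was lost without any 1 of 5 libraries of those 2 populations, all but Kit+ K5+ replicate 3, with an adjusted p of up to 0.0886. The differences of Kit- K5+ cells from Kit- K5- cells (log2 -1.96 ± 1.19, adjusted p = 0.287) and of Kit+ K5- cells from Kit- K5- cells (log2 -2.38 ± 1.20, adjusted p = 0.181) did not pass. Exons of a pseudogene on the other strand, Gm8398, cover 8.80% of those of Wnt11.

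Wnt9a, known for its part in joint formation, likewise had its highest mean in Kit- K5- cells. It passed no test in the edgeR fit of all libraries with TMM scaling and the filter. Over the 4 populations it was called with limma-voom, with libraries scaled to general epithelial genes, without a filter, and without Kit- K5+ replicate 3. Its levels were 0, 0.868 and 0.646 CPM for Kit+ K5+, 0.845, 0.105 and 0.146 for Kit+ K5-, 0, 0 and 5.17 for Kit- K5+ and 4.59, 5.82 and 3.68 for Kit- K5- cells. Kit- K5- cells were separate from both Kit+ populations, and Kit- K5+ replicate 3 reached their range. Among K5- cells Wnt9a differed by -3.60 ± 1.55 between Kit+ and Kit- (log2, adjusted p = 0.117, unadjusted p = 0.0362).

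Mesenchyme transcripts were also highest in Kit- K5- cells, as were the means of Wnt9a and Wnt11. The 16 markers summed there to 13080 to 20950 CPM, and their part in these levels was not tested. In Kit- K5+ replicate 3 the same sum was 903 CPM, with 5.17 CPM of Wnt9a and 1.72 CPM of Wnt11. The Kit- K5+ libraries, highest in Wnt4, had sums of 903 to 1311 CPM. The Kit+ libraries had sums of 583 to 1061 CPM and 5.27 to 10.9 CPM of Wnt4.

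**Figure D3:**
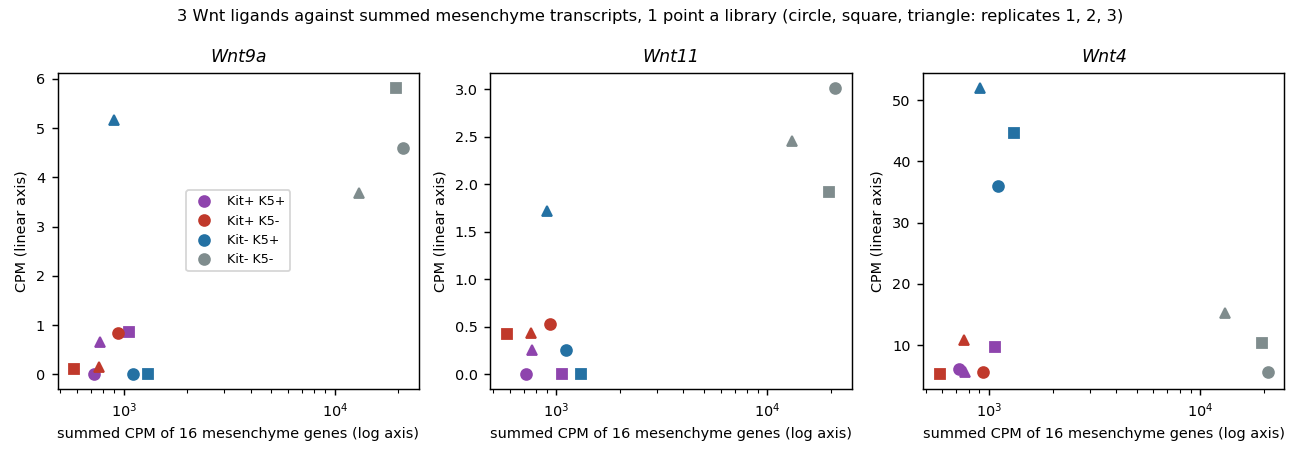
Level of Wnt9a, Wnt11 and Wnt4 (CPM, linear axis) against the summed CPM of 16 mesenchyme genes (log axis), with 1 point a library. The Kit- K5- libraries, at 13080 to 20950 CPM of mesenchyme transcripts, hold the 3 highest points of Wnt11. The 3 highest points of Wnt4 lie at 903 to 1311 CPM, and the Kit+ libraries at 583 to 1061 CPM.

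Wnt6 and Wnt10a are neighbours on chromosome 1, on the same strand and 6193 bases apart, and both are ligands of surface epithelia. Wnt6 had 1.20, 1.64 and 0.904 CPM for Kit+ K5+, 0.106, 2.32 and 0.291 for Kit+ K5-, 6.50, 3.98 and 4.21 for Kit- K5+ and 0.328, 0.383 and 2.35 for Kit- K5- cells. The 3 Kit- K5+ libraries were above the 9 others, yet no comparison passed in the edgeR fit of all libraries. The closest were K5 among Kit- cells (log2 2.28 ± 1.00, adjusted p = 0.138) and Kit+ K5- against Kit- K5+ (log2 -2.40 ± 1.01, adjusted p = 0.221). Over the 4 populations Wnt6 was called with limma-voom (adjusted p = 0.0253).

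Wnt10a, not tested, had 0.184, 1.83 and 0.517 CPM for Kit+ K5+, 0.317, 0.105 and 0.874 for Kit+ K5-, 5.38, 0.687 and 0.383 for Kit- K5+ and 0, 0.690 and 0.817 for Kit- K5- cells. The populations overlapped. Kit- K5+ replicate 1 had the highest level of both neighbours, and it also had the highest summed level of 8 myoepithelial genes, 1343 CPM against 34.5 to 275 CPM in the other libraries. Whether these are connected was not tested.

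Wnt10b, a ligand of mammary and skin epithelium, had 0.184, 0.964 and 4.13 CPM for Kit+ K5+, 1.06, 2.84 and 1.17 for Kit+ K5-, 1.00, 0.687 and 1.34 for Kit- K5+ and 0.721, 0.0766 and 1.84 for Kit- K5- cells. The populations overlapped and each comparison had an adjusted p of at least 0.544. It was the only tested ligand whose mean was highest in Kit+ K5+ cells, a rank that came from replicate 3 at 4.13 CPM.

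Wnt2, a ligand of lung mesenchyme, had 0, 0.771 and 0 CPM for Kit+ K5+, 0.951, 0.105 and 0 for Kit+ K5-, 0.125, 0.275 and 4.97 for Kit- K5+ and 1.31, 0.613 and 0.613 for Kit- K5- cells. Wnt7b, a ligand of lung epithelium that was not tested, had 0.0922, 0.675 and 0.129 CPM for Kit+ K5+, 0.634, 0.211 and 0 for Kit+ K5-, 0.875, 0.137 and 3.06 for Kit- K5+ and 0.131, 0.230 and 1.43 for Kit- K5- cells. Both reached their highest level in Kit- K5+ replicate 3, and outside it no library exceeded 1.43 CPM of either gene. Antisense exons of AU022754 cover 6.62% of those of Wnt7b.

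The pairwise comparisons were read against the share of all genes called. For K5 among Kit+ cells edgeR called 0 of 8 ligands, as it called 0% of all genes (54 genes with a block on the runs), and 0 ligands had an unadjusted p below 0.05. DESeq2 and limma-voom also called 0 ligands in this comparison. For K5 among Kit- cells 1 ligand was called, Wnt4, beside 16.5% of all genes. For Kit among K5+ cells 2 were called, Wnt4 and Wnt5b, both lower in Kit+ cells, beside 0.658% of all genes (112 genes, or 788 with a block on the runs). For Kit among K5- cells edgeR called 0 ligands beside 21.3% of all genes, with 2 at an unadjusted p below 0.05, Wnt5b and Wnt9a, DESeq2 called 1, Wnt5b, and limma-voom 1, Wnt9a. For Kit+ K5- against Kit- K5+, 1 ligand was called, Wnt4, beside 2.67% of all genes, and for Kit+ K5+ against Kit- K5-, 2 were called, Wnt5b and Wnt11, beside 26.7%. The interaction, the test of whether the K5 difference itself differed with Kit, called 0 ligands beside 4.02% of all genes (684 genes, or 1418 with the block, with which Wnt4 passed). At an unadjusted p below 0.05 it had 1, Wnt4, which DESeq2 called, and limma-voom called 0.

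The fitted differences of the 8 ligands lay mostly below 0 for Kit. Among K5+ cells 7 of 8 were below 0 with a median of -2.43. Over all genes the median was -0.05 and 53.1% were below 0. Among K5- cells it was 7 of 8 with a median of -1.07, against 0.05 and 48.0% over all genes. In both, Wnt10b was the exception (log2 0.79 ± 1.11 and 0.96 ± 1.09, neither called). Wnt9a and Wnt11 passed the filter on low counts only through Kit- libraries. Wnt2 and Wnt5b also needed Kit- libraries to pass it. This favours values below 0, so these counts are a description. Without Kit- K5+ replicate 3, that population averaged 0.200, 2.70 and 0 CPM of Wnt2, Wnt5a and Wnt9a. Kit+ K5+ cells averaged 0.257, 1.66 and 0.505 CPM of the same genes. For K5 the medians were -0.23 among Kit+ and 0.80 among Kit- cells, against -0.04 and 0.04 over all genes. Among Kit- cells only Wnt9a and Wnt11 were below 0, and with libraries scaled to the general epithelial genes, which moved the median of all genes to -1.68, Wnt2, Wnt5a, Wnt5b and Wnt10b were below 0 too, each less far than that median. The comparisons share populations and their values are not separate.

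**Figure D4:**
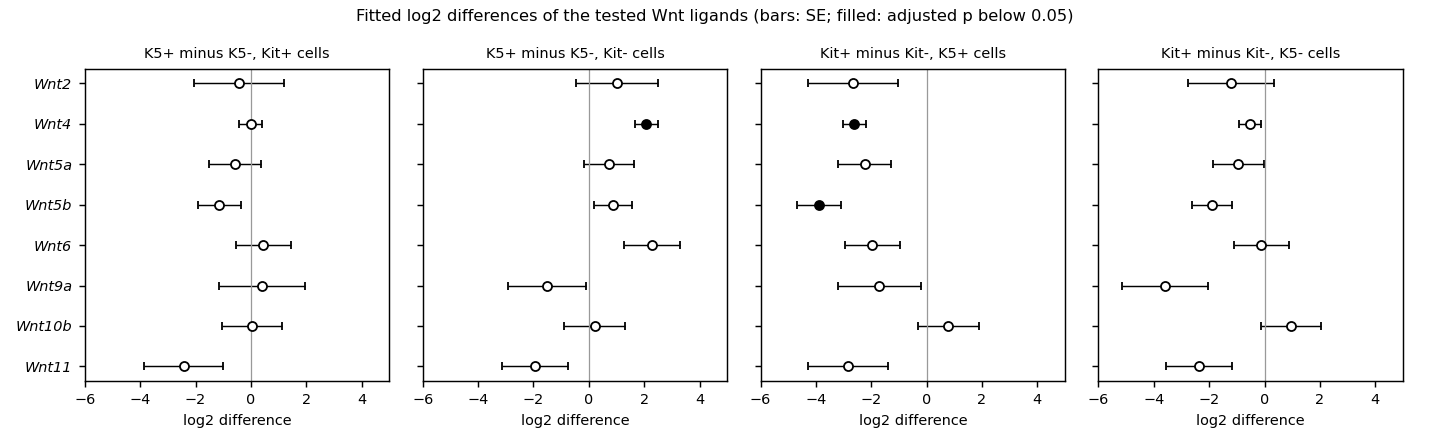
Fitted log2 differences of the 8 tested Wnt ligands in the 4 pairwise comparisons, with bars of 1 SE and filled points at an adjusted p below 0.05. Filled points are Wnt4 for K5 among Kit- cells (2.08) and Wnt4 and Wnt5b for Kit among K5+ cells (-2.62 and -3.89).

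As a description over the 12 libraries, which share their populations and depth, the ligands whose log2 levels were most alike were Wnt9a and Wnt11 (Pearson r = 0.840), Wnt4 and Wnt5b (0.786), Wnt2 and Wnt9a (0.761) and Wnt4 and Wnt6 (0.720). Among genes with a mean of at least 5 CPM, those most like Wnt4 were Tox (0.937), Parp11 (0.901) and Itgb6 (0.895). Itgb6, an integrin subunit of epithelia, had 18.5 CPM on average in Kit- K5+ cells and 2.86 to 3.57 CPM in the other populations. Those most like Wnt5b were Ccdc171 (0.898), Clstn2 (0.882) and Cacna1b (0.854).

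Of the 9 other Wnt genes, 2 passed the filter, Wnt2b and Wnt16. Wnt2b was the most abundant, at 3.74 ± 3.96, 5.74 ± 0.316, 3.77 ± 2.11 and 15.4 ± 3.54 CPM in the order of populations used above. Its level was lower in the Kit+ K5+ population than in Kit- K5- cells (log2 -2.03 ± 0.66, adjusted p = 0.0345). Among Kit- cells its K5 difference just missed the threshold (log2 -2.04 ± 0.66, adjusted p = 0.0507) and passed with a block on the runs (adjusted p = 0.0140). Wnt16 had at least 0.862 CPM on average in each population and passed no comparison, and the remaining 7 had at most 1.45 CPM on average in any population.

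The machinery that releases Wnts differed in 1 of 8 tested genes over the 4 populations, the carrier Wls, beside 25.7% of all genes. It had 39.0, 43.8 and 62.7 CPM for Kit+ K5+, 17.5, 36.5 and 38.9 for Kit+ K5-, 70.0, 135 and 99.1 for Kit- K5+ and 38.8, 40.0 and 42.0 for Kit- K5- cells. The Kit- K5+ libraries were above the 9 others, as for Wnt4. Wls was higher with K5 among Kit- cells (log2 1.33 ± 0.31, adjusted p = 0.0109) and lower in the Kit+ K5- population than in Kit- K5+ cells (log2 -1.71 ± 0.32, adjusted p = 0.0196). For K5 among Kit- cells, scaling to the general epithelial genes moved the median of all genes from 0.04 to -1.68, further than this difference of 1.33. The Kit difference of Wls among K5+ cells did not pass (log2 -1.07 ± 0.31, adjusted p = 0.111) except with the block on the runs (log2 -1.05, adjusted p = 0.0308).

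Among receptors and co-receptors, 5 of 16 differed over the 4 populations, a share near the 25.7% of all genes. The Frizzled receptors Fzd6 and Fzd5 had 12.2 ± 3.07 and 21.8 ± 4.38 CPM in Kit- K5- cells and at least 45.5 and 57.4 CPM on average in the others. Both were higher with K5 among Kit- cells, by 2.40 ± 0.27 (adjusted p = 6.30e-05) and 2.10 ± 0.25 (adjusted p = 9.90e-05) on the log2 scale. Ror1, a receptor of Wnt5a, had its highest level in Kit- K5- cells, 94.2 ± 9.27 CPM against 26.6 to 37.5 CPM on average elsewhere, and was lower in Kit+ than in Kit- cells among K5- cells (log2 -1.75 ± 0.44, adjusted p = 0.0114). For Kit among K5+ cells, 0 of 16 passed with or without the block, beside 0.658% of all genes, or 788 genes with the block.

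Secreted inhibitors differed in 6 of 9 tested genes, beside 25.7% of all genes. Dkk2, which blocks Lrp5 and Lrp6, had 40.1 ± 15.9 CPM in Kit- K5- and 0.796 to 2.47 CPM on average in the other populations, and Sfrp2, which binds Wnts, had 103 ± 29.1 and 7.39 to 9.18 CPM. Dkk3 was high in both Kit- populations, at 29.2 ± 6.96 with and 24.7 ± 5.72 CPM without K5, with 6.67 ± 2.42 and 5.06 ± 3.67 CPM among Kit+ cells. Kit+ K5- cells had less of it than either Kit- population (log2 -2.54 ± 0.54, adjusted p = 0.0287 against Kit- K5+, and log2 -2.30 ± 0.53, adjusted p = 0.00767 against Kit- K5-). In Kit+ K5+ against Kit- K5+ it missed the threshold (log2 -2.13 ± 0.53, adjusted p = 0.0745), and with the block 2 inhibitors were called lower there, Dkk3 (adjusted p = 0.0250) and Sostdc1 (adjusted p = 0.0273).

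In the R-spondin axis, which sets how many Frizzled receptors stay at the surface, 6 of 8 tested genes differed, beside 25.7% of all genes. Rnf43, the ligase that removes Frizzled, had 8.13 ± 0.922 CPM in Kit- K5- cells and 43.2 to 48.3 CPM on average elsewhere, while the ligand Rspo3 had 11.9 ± 2.92 CPM there and 0.414 to 1.03 CPM elsewhere. Lgr6, a receptor for R-spondins, had 46.3 ± 53.0 CPM in Kit- K5+ cells with a wide spread, and was higher there than in Kit- K5- cells (log2 3.87 ± 0.81, adjusted p = 0.00571). With limma-voom its difference over the 4 populations was lost (adjusted p = 0.0748).

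The beta-catenin core changed in 3 of 18 genes over the 4 populations, fewer than the 25.7% of all genes. Apc2, a relative of the Apc tumour suppressor, had 22.1 ± 5.69 CPM in Kit- K5- and 1.77 to 2.28 CPM on average elsewhere. Tcf7l2, a Tcf transcription factor, had 252 ± 44.1 CPM there and 103 to 159 CPM elsewhere. Pygo1, a partner of beta-catenin, had 57.1 ± 5.66 with and 59.8 ± 15.0 CPM without K5 among Kit- cells, and 30.6 ± 2.28 with and 23.7 ± 11.1 CPM without K5 among Kit+ cells.

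Of the genes listed as Wnt targets, 8 of 16 tested differed, in both directions, beside 25.7% of all genes. Wisp1, also called Ccn4, had 14.8 ± 3.25 with and 74.3 ± 22.4 CPM without K5 among Kit- cells, and 2.73 ± 1.26 with and 2.68 ± 1.34 CPM without it among Kit+ cells, and like Wnt4 and Wnt5b it was lower in Kit+ cells among K5+ cells (log2 -2.44 ± 0.44, adjusted p = 0.0363). Dact1, an inhibitor of the pathway, had 77.0 ± 19.0 CPM in Kit- K5- cells and 5.06 to 7.52 CPM on average elsewhere. Ccnd1, a cyclin of the G1 phase, went the other way, with 567 ± 142 and 825 ± 139 CPM in Kit+ and 178 ± 89.9 and 171 ± 61.7 CPM in Kit- cells, and was higher with Kit among K5- cells (log2 2.27 ± 0.37, adjusted p = 8.18e-04).

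Planar polarity genes differed in 6 of 10, beside 25.7% of all genes. The cadherins Celsr1 and Celsr2 had 33.1 ± 7.60 and 52.5 ± 24.3 CPM in Kit- K5- cells and at least 132 and 222 CPM on average elsewhere, and Daam2, a formin that acts below Dishevelled, had 59.2 ± 25.1 CPM there and at most 3.13 CPM elsewhere. The genes that set Kit- K5- cells apart in these lists did so beside the mesenchyme sum of 13080 to 20950 CPM, whose part was not tested. With libraries scaled to the general epithelial genes, the differences over the 4 populations were lost for Fzd6 (adjusted p = 0.111), Fzd5 (0.113), Rnf43 (0.317), Celsr1 (0.838) and Celsr2 (0.350). The plot of the other pathway genes also shows genes that followed other courses. Wls and Lgr6 had their highest means in Kit- K5+ cells, Pygo1 and Dkk3 were high in both Kit- populations, and Ccnd1 was high in both Kit+ populations.

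**Figure D5:**
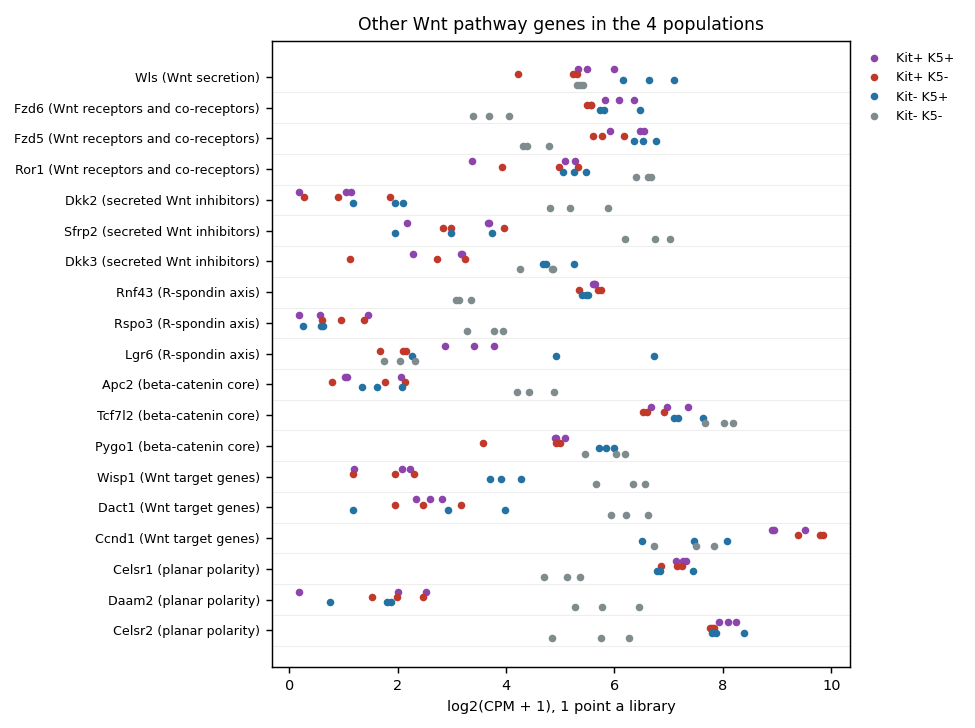
Level of the 19 named genes of the other Wnt pathway lists in the 12 libraries, as log2(CPM + 1) with 1 point a library and the list in brackets. Wls points of Kit- K5+ cells lie to the right of all others, and those of Dkk3 in both Kit- populations lie to the right of the Kit+ points.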

How the data were processed

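RNA-seq counts per gene were analysed from 12 libraries, 3 of each of 4 sorted populations of the embryonic day 15 gland. The deposited values were whole-number counts made by the authors. Per the labels' protocols, STAR 2.4.2a aligned single reads of 50 nt to GRCm38 and featureCounts counted them. Version 1.4.6-p3 of featureCounts, Picard 1.129 and GRCm38.p3 stand in the submitters' processing notes. For the annotation release and strand, nothing is given in the sources used here. The series table and the single tables differed in 0 cells. Within each population, no library was a duplicate of another by a chi-square comparison of counts. Libraries of different populations were not compared in this way.

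Genes passing filterByExpr (minimum count 10) numbered 17030. After TMM scaling, 1 edgeR 4.0.16 quasi-likelihood fit in R 4.3.3 took all 12 libraries with 8 residual degrees of freedom and a common biological coefficient of variation of 0.437. The 8 tests were adjusted over all genes at 0.05, and log2 values carry standard errors from the fit. The procedure was tested on simulated data, with changes placed only in genes averaging at least 10 CPM. Each tested ligand except Wnt4 averaged less in every population, so the simulation does not cover their low counts. CPM per kilobase used union exon lengths of GENCODE M21 on GRCm38, which also gave positions. DESeq2 1.42.0, limma-voom (limma 3.58.1), other scalings and filters, a block and leaving out libraries were the alternatives, and the same alternatives for the pathway genes were chosen after seeing the data.

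The members and lists were chosen with earlier results of these data known. Named were all 10 ligands, other Wnt genes passing the filter, up to 3 genes of each pathway list with the smallest adjusted p over the 4 populations, and for each ligand called there the 3 genes most like it by Pearson r of log2 CPM (prior count 2), predicted genes left out. Itgb6 is described further after its values were seen.

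Library numbers 1 to 4, 5 to 8 and 9 to 12, taken from the titles, each hold all 4 populations. Whether a run shares a sort is not in the labels. Deviations from the population means of the same run correlated at 0.263 to 0.369 (K5 in Kit+), 0.153 to 0.207 (K5 in Kit-) and 0.108 to 0.156 (Kit in K5+). They correlated at 0.299 to 0.408 (Kit in K5-) and 0.201 to 0.234 (Kit+ K5+ against Kit- K5-). For Kit+ K5- against Kit- K5+ the values were 0.197, 0.365 and 0.0928 in runs 1, 2 and 3. These correlations do not show whether a run shares a sort. Unless a block is named, the tests used none, so their p-values leave out any pairing by run.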

Additional observations from a re-analysis of the deposited data

Results flagged for a closer look

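No Wnt ligand had a K5 difference that differed between Kit+ and Kit- cells past the threshold of the interaction test, although Wnt4 passed it with a block on the runs (adjusted p = 0.0162), with DESeq2 (0.0110), with upper-quartile factors (0.0476) and without a filter (0.0116). Of the 19 pathway genes named, 10 did, by edgeR's quasi-likelihood test with Benjamini-Hochberg adjustment over all genes, beside 4.02% of all genes. The 19 had been chosen for the smallest adjusted p over the 4 populations, so their count is no comparison with the ligands or with all genes. Given as the K5 difference in Kit+ cells less that in Kit- cells on the log2 scale, the value was -1.84 for Celsr1, -2.03 for Celsr2, -1.62 for Fzd5, -1.83 for Fzd6 and -2.40 for Rnf43, genes at their lowest in Kit- K5- cells. It was 4.70 for Daam2, 3.38 for Dact1, 4.45 for Rspo3, 3.80 for Sfrp2 and 2.37 for Wisp1, genes at their highest in Kit- K5- cells. Mesenchyme transcripts summed to 13080 to 20950 CPM in those libraries and to 583 to 1311 CPM in the others, and their part in these differences was not tested. With libraries scaled to general epithelial genes, where the median of all genes was 1.57, the calls were lost for Celsr1 (adjusted p = 0.713), Celsr2 (0.520), Fzd5 (0.980), Fzd6 (0.708) and Rnf43 (0.225). With limma-voom they were lost for Daam2 (adjusted p = 0.136), Rspo3 (0.121) and Wisp1 (0.140), and with upper-quartile factors for Dact1 (adjusted p = 0.0599) and Wisp1 (0.0754). When any 1 of the 12 libraries was left out, the calls of Celsr1, Celsr2, Fzd6, Rnf43 and Sfrp2 were kept, and each of the other 5 was lost without at least 1 library. With 3 libraries in each population, single libraries were not screened as outliers.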

How the results depend on the processing

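Of 1319 values of single ligands under the alternatives, 0 called ones changed sign, 65 uncalled ones did and 34 became called. Over the 4 populations 2 ligands were called, 3 with DESeq2 (with Wnt11), 5 with limma-voom, 5 with libraries scaled to general epithelial genes, 4 without a filter and 2 to 4 when a library was left out. For K5 in Kit- cells 1 became 4 with limma-voom, 2 with the epithelial scaling and 1 to 2 without a library. For Kit in K5+ cells 2 became 1 with limma-voom, 1 when only the compared populations were fitted and 0 to 2 without a library. For Kit in K5- cells 0 became 1 with DESeq2, 1 with limma-voom, 5 with the epithelial scaling, 1 without a filter, 2 with only the compared populations and 0 to 1 without a library. For Kit+ K5+ against Kit- K5-, 2 became 6 with the epithelial scaling, 3 without a filter, 3 with only the compared populations and 1 to 3 without a library. For Kit+ K5- against Kit- K5+, 1 became 2 with DESeq2 and 2 without a filter, and 0 to 1 without a library. The interaction had 0, 1 with DESeq2, 1 with upper-quartile factors, 1 without a filter and 0 to 1 without a library. For K5 in Kit+ cells it was 0 throughout. Upper-quartile factors moved the median of all genes to 0.15, -0.16 and -0.25 for K5 in Kit- cells, Kit in K5+ cells and the interaction. The cause of these changes was not tested.

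The replicate block on the runs changed no ligand's call in the 5 pairwise comparisons other than Kit+ K5- against Kit- K5+. For that comparison it gave 2 calls (with Wnt5b, adjusted p = 0.0484), and 1328 genes in place of 454. It gave 3 calls over the 4 populations (Wnt11, adjusted p = 0.0279) and 1 for the interaction (Wnt4, adjusted p = 0.0162).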
